A study of Mus musculus with 15 samples.

Results

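The insulin-like growth factor (IGF) system was followed through 10 genes in mouse forebrain: the ligands Igf1 and Igf2, the receptors Igf1r and Igf2r, and the binding proteins Igfbp2, Igfbp3, Igfbp4, Igfbp5, Igfbp6 and Igfbp7. They were chosen by name, and every probe set (the group of short probes that reports 1 transcript) annotated to 1 of these symbols alone was taken. This gave 28 of the 45037 probe sets on Affymetrix mouse expression arrays, for 10 of 18193 named genes. A further probe set, shared by Igf2r and a second symbol, was left out. Of the 28, 25 were bright enough to be tested, with a mean of at least 5.46 on the log2 scale. The 3 below that limit were 1415931_at for Igf2 and 1423585_at and 1437804_at for Igfbp7.

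Total RNA of the forebrain was hybridised in 3 groups of 5 arrays. VEH-Sham samples received vehicle and then a sham operation, VEH-HI samples received vehicle and then hypoxic ischemia (a combined lack of oxygen and blood flow), and EPO-HI samples received erythropoietin at 5 U per g into the peritoneum and then hypoxic ischemia. Each injection preceded the procedure by 1 h, and no group had erythropoietin with sham surgery. The sources used here do not give strain, age, sex or the time from injury to sampling. The labels do not state that the arrays hold separate animals, so the p-values speak to the scatter among these arrays, part or all of which could be technical. Values are log2(intensity + 16), and a difference of 1 on this scale is close to a doubling for bright probe sets and more than that for dim ones.

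IGF1 and IGF2 are small secreted proteins that act on IGF1R, a tyrosine kinase receptor whose adaptors, the insulin receptor substrates, feed the PI3K and AKT kinases and so favour cell growth and survival. IGF2R, the cation-independent mannose 6-phosphate receptor, has no kinase; it carries lysosomal enzymes and takes up IGF2 for breakdown. The binding proteins hold IGFs in the fluid around cells and set how much reaches the receptor; IGFBP7 binds IGFs weakly and is a protein of blood vessel walls. In the brain, Igf2 is best known from the meninges and choroid plexus, and Igfbp2 from astrocytes and those same linings.

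The arrays differed in a way that the labels do not record, and this bears on every comparison with sham. VEH-Sham 1 to 4 had median intensities of 55.3 to 57.9, against 39.8 for VEH-Sham 5 and 39.2 to 44.4 for the 10 arrays of hypoxic ischemia. VEH-Sham 5 had a mean correlation over probe sets of 0.95 with the other sham arrays and of 0.973 with the hypoxic ischemia arrays. VEH-Sham 5 is therefore given apart throughout, and the difference from VEH-Sham 5 alone, which rests on 1 array, is given beside differences from sham. As a check of the tissue, 7 genes of forebrain identity were tested, Neurod6, Lhx2, Tbr1 and Dlx1 among them. None of the 7 differed between VEH-HI and VEH-Sham at the threshold, and Neurod6 was lower in EPO-HI than in VEH-Sham (-0.51, limma adjusted p = 0.0221; -0.11 against VEH-Sham 5 alone). The mean over them ran from 7.94 to 8.18 in VEH-Sham and from 7.79 to 8.11 in VEH-HI. Of 4 tested genes of cerebellum and hindbrain, Hoxa5 was higher in VEH-HI (0.29, limma adjusted p = 0.0431; 0.26 against VEH-Sham 5 alone).

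The windows upstream of Igfbp7, Igfbp3 and Igfbp2 are shown because their brightest probe sets were called higher in VEH-HI than in VEH-Sham. The differences were 0.74, 0.73 and 0.51, but 0.75, 0.86 and 0.12 against VEH-Sham 5 alone. Igf2 was called higher as well, and its windows are described below without being printed. The core of the hypoxia response element, to which hypoxia-inducible factors bind, is a short sequence that can be looked for in such windows. Each window is the 250 bases before a RefSeq gene start on GRCm38.p6, written along the gene's own strand; capitals mark ACGTG or GCGTG on either strand (CACGT or CACGC when read from the other strand).
Igfbp7 (chr5:77408046-77408295, minus strand): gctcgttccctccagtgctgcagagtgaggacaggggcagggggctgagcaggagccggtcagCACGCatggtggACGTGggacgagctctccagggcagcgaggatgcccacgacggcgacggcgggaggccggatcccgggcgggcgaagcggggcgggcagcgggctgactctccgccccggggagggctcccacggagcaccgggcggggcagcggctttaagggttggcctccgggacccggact
Igfbp3 (chr11:7213924-7214173, minus strand): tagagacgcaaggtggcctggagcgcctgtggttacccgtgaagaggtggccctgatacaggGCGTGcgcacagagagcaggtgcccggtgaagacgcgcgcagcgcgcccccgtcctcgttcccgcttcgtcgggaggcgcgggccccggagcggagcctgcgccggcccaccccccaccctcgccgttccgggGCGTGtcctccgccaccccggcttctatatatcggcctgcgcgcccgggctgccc
Igfbp2 (chr1:72824230-72824479, plus strand): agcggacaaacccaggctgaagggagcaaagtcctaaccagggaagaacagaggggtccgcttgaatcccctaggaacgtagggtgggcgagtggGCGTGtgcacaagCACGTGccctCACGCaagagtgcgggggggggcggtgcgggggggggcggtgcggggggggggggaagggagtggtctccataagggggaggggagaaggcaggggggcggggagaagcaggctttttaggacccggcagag
The Igfbp7 window held 1 ACGTG and 1 GCGTG, at -175 and -187 from the start. The Igfbp3 window held 2 GCGTG, at -188 and -55. The Igfbp2 window shown held 2 GCGTG and a palindrome that reads ACGTG on both strands and so counts as 2 matches, at -142 and -141; the window of a second Igfbp2 start held neither core. Of 4 Igf2 windows, 3 held neither core and 1 held ACGTG. Either core was found in 38.6% of all 32851 RefSeq windows of this length, ACGTG in 16.6% and GCGTG in 28.2%. Among the 14 windows of the 10 members, 7 held either core. The windows of Igf1, Igf1r and Igf2r, whose brightest probe sets did not pass the test in any comparison, were among them. These matches describe the letters only.

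After hypoxic ischemia under vehicle, the binding protein genes Igfbp7, Igfbp3 and Igfbp2 and the ligand Igf2 were higher than in sham by the brightest probe set of each gene, and none of the 10 genes was lower. By probe set, 9 of 25 passed the test between VEH-HI and VEH-Sham (limma, Benjamini-Hochberg adjusted p under 0.05 over 27022 probe sets). Of these, 6 were higher and 3 lower, against 22.8% of all tested probe sets called in either direction, 9.85% higher and 13.0% lower. By gene, 4 of 10 were higher, where 23.4% of 13168 genes were called in either direction, 11.9% higher and 11.5% lower. The median difference over the members' brightest probe sets was 0.20, beside -0.02 over all 13168 genes. With the arrays set to equal medians, which moves the median of all probe sets from -0.06 to 0.18, 10 member probe sets were called higher and 0 lower. With quantile normalization 5 were higher and 1 lower. Against VEH-Sham 5 alone, or with the array set as a covariate, 0 of the 25 were called, where the whole table gave 7 and 3 calls among 27022 probe sets.

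**Figure D1:**
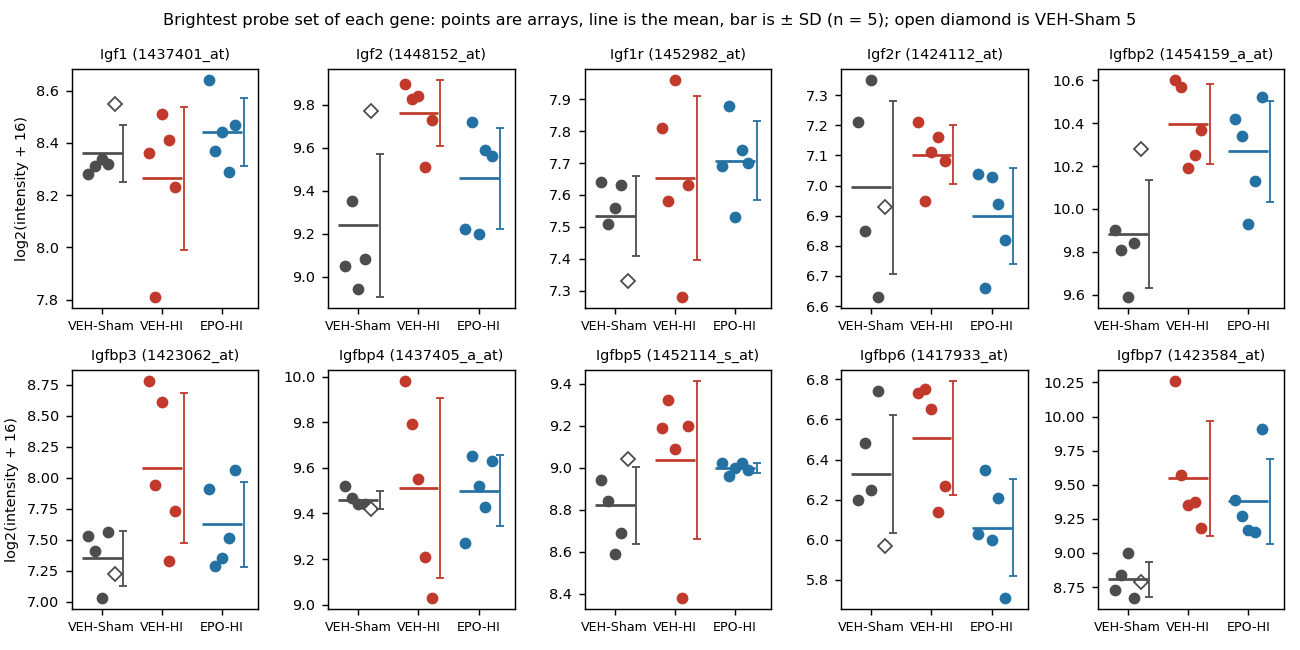
Level of the brightest probe set of each gene, as log2(intensity + 16), on each of the 15 arrays, with the group mean (line) and SD (bar, n = 5); the vertical scale differs between panels. All 10 arrays of hypoxic ischemia lie above all 5 sham arrays for Igfbp7, whereas VEH-Sham 5 (open diamond) lies among the hypoxic ischemia arrays for Igf2 and Igfbp2.

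Among the ligands, Igf2 was higher after hypoxic ischemia, but not beside VEH-Sham 5. Its level read 9.05, 9.35, 8.94 and 9.08 on VEH-Sham 1 to 4 and 9.77 on VEH-Sham 5. It read 9.90, 9.83, 9.84, 9.51 and 9.73 on VEH-HI 6 to 10. It read 9.22, 9.72, 9.20, 9.59 and 9.56 on EPO-HI 11 to 15. All VEH-HI arrays lay above VEH-Sham 1 to 4, and VEH-Sham 5 lay inside their range, 0.67 above the mean of the other sham arrays. VEH-HI exceeded VEH-Sham by 0.52 (SE 0.14, limma adjusted p = 0.0119). Set against VEH-Sham 5 by itself, the difference was -0.01. In order of their means the groups ran VEH-HI 9.76 ± 0.16, EPO-HI 9.46 ± 0.23 and VEH-Sham 9.24 ± 0.33 (SD, n = 5), and no neighbours in that order passed the adjusted test. The other Igf2 probe set, 1415931_at, was too dim to be tested and had group means of 5.12 to 5.35.

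Igf1, the other ligand, showed no change by its brightest probe set, 1437401_at, and a lower level by 1 of its other 3. The brightest read 8.28, 8.31, 8.34 and 8.32 on VEH-Sham 1 to 4 and 8.55 on VEH-Sham 5. It read 8.36, 7.81, 8.51, 8.41 and 8.23 in VEH-HI and 8.64, 8.37, 8.44, 8.29 and 8.47 in EPO-HI. The groups overlapped, VEH-HI 7 was the lowest array, and the VEH-HI difference was -0.10 (SE 0.12, limma adjusted p = 0.564; -0.29 against VEH-Sham 5 alone). Probe set 1434413_at read 8.30, 8.58, 8.28, 8.47 and 8.14 in VEH-Sham, and 8.24, 7.49, 8.27, 8.01 and 7.84 in VEH-HI. VEH-HI was lower there by a difference of -0.39 (SE 0.14, limma adjusted p = 0.0474; -0.17 against VEH-Sham 5 alone), and VEH-HI 7 was again the lowest array. This call was lost in 17 of 25 alternative settings, 10 of them leaving out 1 array (VEH-Sham 1, 2, 3 or 4, VEH-HI 7, 9 or 10, or EPO-HI 12, 14 or 15; adjusted p of 0.0549 to 0.138). The remaining Igf1 probe sets, 1419519_at and 1452014_a_at, differed by -0.27 and 0.06 (-0.49 and -0.10 against VEH-Sham 5 alone) and did not pass.

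The receptor Igf1r gave different readings by probe set. Its brightest, 1452982_at, did not pass, with a VEH-HI difference of 0.12 (SE 0.12, limma adjusted p = 0.501; 0.32 against VEH-Sham 5 alone), and read 7.64, 7.51, 7.56, 7.63 and 7.33 in VEH-Sham, 7.81, 7.58, 7.96, 7.28 and 7.63 in VEH-HI and 7.69, 7.88, 7.53, 7.74 and 7.70 in EPO-HI. All 3 groups overlapped there. The dimmer 1452108_at read 6.51, 6.61, 6.05 and 6.95 on VEH-Sham 1 to 4 but 5.16 on VEH-Sham 5. It read 5.40, 5.20, 5.72, 5.80 and 4.79 in VEH-HI and 4.67, 5.19, 4.65, 5.16 and 5.19 in EPO-HI. The split thus fell between VEH-Sham 1 to 4 and the other 11 arrays, with VEH-Sham 5 among the hypoxic ischemia arrays. VEH-HI was lower by a difference of -0.87 (SE 0.28, limma adjusted p = 0.0294), which became 0.22 against VEH-Sham 5 alone. The means of 1452108_at were 5.38 in VEH-HI and 4.97 in EPO-HI, both below the limit of 5.46 for testing. It was tested because of the VEH-Sham mean of 6.26, so its lower calls compare a readable sham level with dim signals. Probe set 1428967_at was lower in VEH-HI by a difference of -0.47 (SE 0.16, limma adjusted p = 0.0408; -0.16 against VEH-Sham 5 alone), with values of 6.50, 7.24, 6.98, 6.37 and 6.40 in VEH-Sham and of 6.20, 6.34, 6.35, 6.01 and 6.26 in VEH-HI, which did not overlap (4.51% of probe sets lay below sham in this way). Both lower calls were lost on leaving out VEH-Sham 2 or VEH-HI 6, 7 or 10. That of 1452108_at was also lost without VEH-Sham 1 or 4 (limma adjusted p of 0.0508 to 0.0949 over its 6 losses). That of 1428967_at was also lost without VEH-Sham 3 or VEH-HI 9 (0.0526 to 0.13 over its 6). Quantile normalization and equal array medians each removed both calls as well. In all, 1452108_at lost its VEH-HI call in 11 of 24 settings and 1428967_at in 12 of 25.

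**Figure D2:**
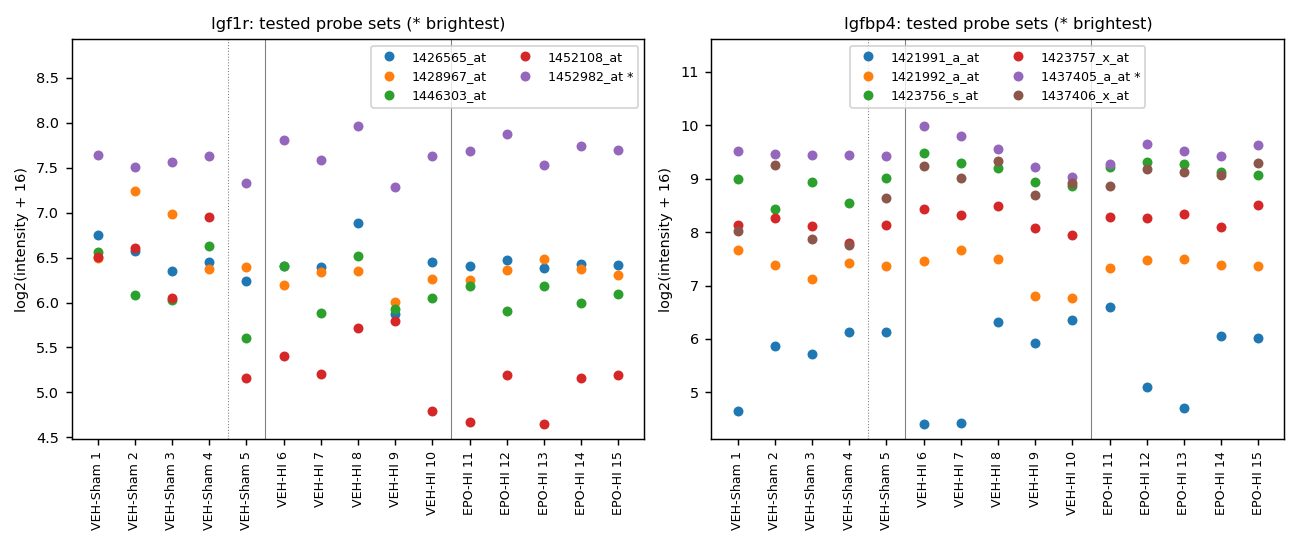
Level of each tested probe set of Igf1r (left) and Igfbp4 (right) on the 15 arrays, as log2(intensity + 16); the dotted line sets VEH-Sham 5 apart and solid lines divide the groups. For Igf1r, 1452108_at drops between VEH-Sham 4 (6.95) and VEH-Sham 5 (5.16) while 1452982_at stays between 7.28 and 7.96 on all 15 arrays.

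Igf2r, the receptor that removes IGF2, passed in no comparison. Its brightest probe set, 1424112_at, read 7.21, 6.85, 7.35, 6.63 and 6.93 in VEH-Sham, 7.21, 6.95, 7.11, 7.16 and 7.08 in VEH-HI and 7.04, 6.66, 7.03, 6.94 and 6.82 in EPO-HI. The sham range enclosed the values of both other groups. The VEH-HI difference was 0.11 (SE 0.13, limma adjusted p = 0.587; 0.17 against VEH-Sham 5 alone), and that of the other probe set, 1424111_at, was -0.23 (0.07 against VEH-Sham 5 alone).

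Among the 10 genes by their brightest probe sets, Igfbp7 alone had every hypoxic ischemia array above every sham array. Its level read 8.73, 8.84, 9.00 and 8.67 on VEH-Sham 1 to 4 and 8.79 on VEH-Sham 5. It read 10.26, 9.57, 9.35, 9.37 and 9.18 on VEH-HI 6 to 10, and 9.39, 9.27, 9.17, 9.15 and 9.91 on EPO-HI 11 to 15. This separation of 10 arrays from 5 held for 2.01% of 13168 genes, and the value of VEH-Sham 5 fell between those of the other sham arrays. VEH-HI was higher by 0.74 (SE 0.16, limma adjusted p = 0.00456), and by 0.75 against VEH-Sham 5 alone. That call was kept in all settings except the array set covariate and VEH-Sham 5 alone, where its adjusted p was 0.586 and 0.69. An exact two-sided permutation test of the 5 against 5 values gave p = 0.00794, the smallest that 252 splits allow (unadjusted, 1 of 30 such tests on the members). The groups ran VEH-HI 9.55 ± 0.42, EPO-HI 9.38 ± 0.31 and VEH-Sham 8.81 ± 0.12 (SD, n = 5), with VEH-HI 6 and EPO-HI 15 the highest arrays; the upper pair of groups did not differ beyond their spread. The 2 other Igfbp7 probe sets, with group means of 4.87 to 5.41 and of 4.58 to 4.68, were too dim to be tested.

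Igfbp3, a carrier of circulating IGFs and a gene induced in several cell types under stress, spread more within VEH-HI than the brightest probe set of any other member (SD 0.61, n = 5). The brightest probe set, 1423062_at, read 7.53, 7.41, 7.03, 7.56 and 7.22 in VEH-Sham and 8.78, 7.94, 8.61, 7.33 and 7.73 in VEH-HI. In EPO-HI it read 7.91, 7.29, 7.35, 7.51 and 8.06. VEH-HI 6 and 8 stood highest, VEH-HI 9 lay inside the sham range, and EPO-HI overlapped both groups. VEH-HI was higher than VEH-Sham by 0.73 (SE 0.22, limma adjusted p = 0.0225; exact permutation p = 0.0397, unadjusted), and by 0.86 against VEH-Sham 5 alone. The call was lost without VEH-HI 6 (0.55, adjusted p = 0.0677), without VEH-HI 8 (0.59, adjusted p = 0.0597) and without VEH-Sham 3 (0.65, adjusted p = 0.0632). The second probe set, 1458268_s_at, read 7.47, 7.62, 7.75, 7.49 and 7.18 in VEH-Sham, 8.29, 7.68, 8.50, 7.27 and 7.43 in VEH-HI and 7.98, 7.27, 7.62, 7.60 and 7.75 in EPO-HI. VEH-HI 6 and 8 were again highest, and its difference of 0.33 (SE 0.19, limma adjusted p = 0.215; 0.65 against VEH-Sham 5 alone) did not pass. In both probe sets VEH-Sham 5 lay below all 10 arrays of hypoxic ischemia.

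Igfbp2, the main binding protein of the developing brain and of cerebrospinal fluid, was higher than VEH-Sham 1 to 4 on all 10 hypoxic ischemia arrays. It read 9.90, 9.81, 9.59 and 9.84 on VEH-Sham 1 to 4 and 10.28 on VEH-Sham 5. It read 10.60, 10.57, 10.19, 10.25 and 10.37 in VEH-HI, and 10.42, 10.34, 9.93, 10.13 and 10.52 in EPO-HI. As for Igf2, VEH-Sham 5 lay within the hypoxic ischemia range. The separation from VEH-Sham 1 to 4 was shared with 8.48% of genes. VEH-HI was higher than the 5 sham arrays by 0.51 (SE 0.13, limma adjusted p = 0.00819) but by 0.12 against VEH-Sham 5 alone.

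Igfbp4, a binding protein that mostly restrains IGF action, gave differing answers from its 6 probe sets. The brightest, 1437405_a_at, read 9.52, 9.47, 9.44, 9.44 and 9.42 in VEH-Sham and 9.98, 9.79, 9.55, 9.21 and 9.03 in VEH-HI, a difference of 0.05 (SE 0.14, limma adjusted p = 0.811; 0.09 against VEH-Sham 5 alone). The sham arrays were close together and the VEH-HI arrays spread to both sides of them. Probe set 1437406_x_at read 8.02, 9.25, 7.88, 7.76 and 8.63 in VEH-Sham, 9.23, 9.01, 9.34, 8.70 and 8.92 in VEH-HI and 8.86, 9.19, 9.12, 9.07 and 9.29 in EPO-HI. It was higher in VEH-HI by 0.73 (SE 0.20, limma adjusted p = 0.0155; 0.41 against VEH-Sham 5 alone), although VEH-Sham 2 lay inside the VEH-HI range, and the call was lost without VEH-Sham 3 or 4 (adjusted p of 0.0505 and 0.0519). Probe set 1423756_s_at was higher by 0.37 (SE 0.13, limma adjusted p = 0.0447; 0.13 against VEH-Sham 5 alone) with overlapping groups. It lost its call in 16 of 25 settings, among them the removal of VEH-Sham 2, 3 or 4, VEH-HI 6, 7 or 8, or EPO-HI 11, 12, 13 or 14 (adjusted p of 0.0511 to 0.134). In Affymetrix names the letters s and x mark probe sets whose probes can match more than 1 transcript. The other 3 Igfbp4 probe sets differed by -0.21 to 0.17 (-0.64 to 0.11 against VEH-Sham 5 alone) and did not pass.

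Igfbp5 and Igfbp6 did not pass between VEH-HI and VEH-Sham. Igfbp5, a binding protein made by neurons and glia of the developing brain, read 8.94, 8.84, 8.59, 8.69 and 9.04 in VEH-Sham and 9.19, 9.32, 9.09, 8.38 and 9.20 in VEH-HI by its brightest probe set, with VEH-HI 9 lowest of all. Its difference was 0.22 (SE 0.14, limma adjusted p = 0.25; -0.0054 against VEH-Sham 5 alone). In EPO-HI its values of 9.02, 8.96, 9.00, 9.02 and 8.99 were closer together than in either other group. Igfbp6, which binds IGF2 in preference to IGF1, read 6.20, 6.48, 6.25, 6.74 and 5.97 in VEH-Sham and 6.73, 6.75, 6.65, 6.14 and 6.27 in VEH-HI, a difference of 0.18 (SE 0.17, limma adjusted p = 0.478; 0.54 against VEH-Sham 5 alone).

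**Figure D3:**
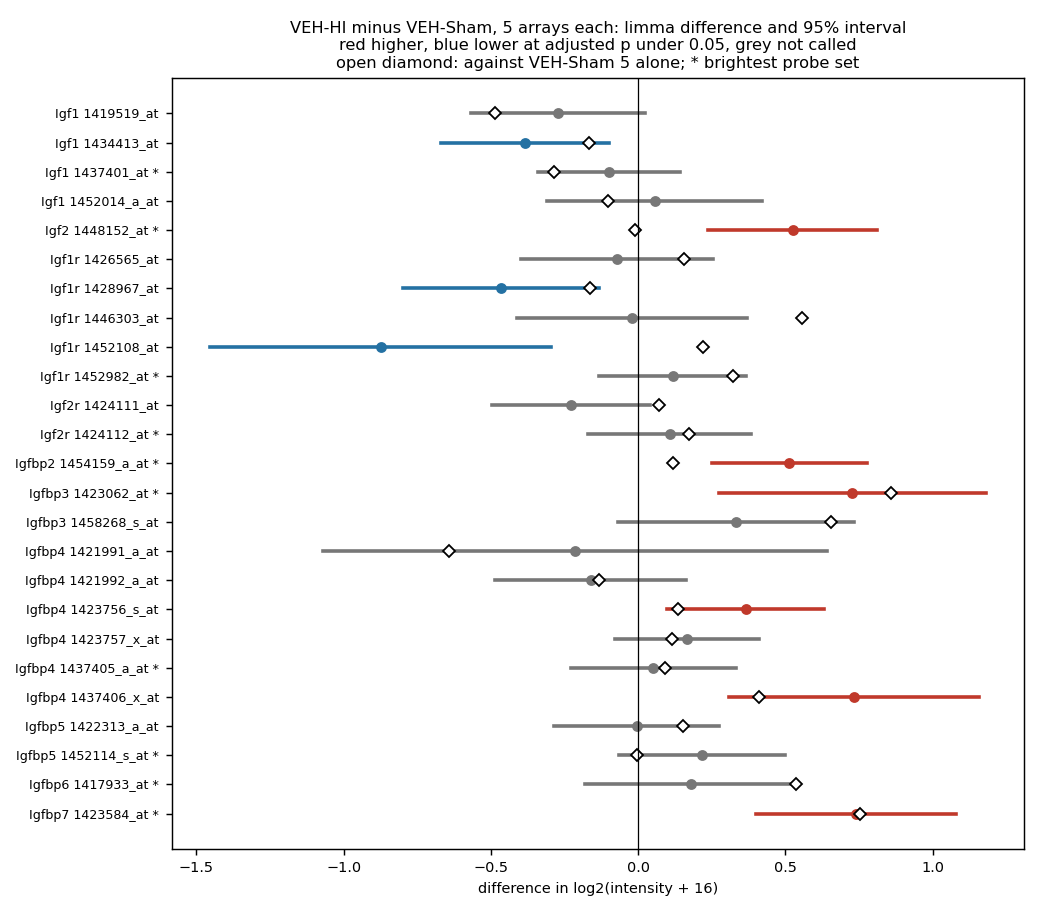
Difference between VEH-HI and VEH-Sham on the log2(intensity + 16) scale for the 25 tested probe sets, with its 95% interval (n = 5 per group); the open diamond is the same difference against VEH-Sham 5 alone. The diamond keeps close to the estimate for Igfbp7 (0.74 and 0.75) and moves to near 0 for Igf2 (0.52 and -0.01).

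The question of the series is what erythropoietin changes after hypoxic ischemia, and no member passed that comparison. Between EPO-HI and VEH-HI 0 of 25 member probe sets were called, beside 0% of 27022 (limma, smallest adjusted p among the members 1.00). At an unadjusted limma p under 0.05, 4 of 25 member probe sets and 3 of 10 genes stood below, beside 3.94% of all probe sets and 3.52% of all genes. EPO-HI and VEH-HI overlapped for all 25, and were apart for 0.822% of all tested probe sets. This comparison holds no sham array, so the position of VEH-Sham 5 does not enter its differences. It does enter their SE, intervals and limma p-values, because the 3 groups share 1 estimate of the spread.

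Igfbp6 had the smallest unadjusted limma p of the members. It read 6.03, 6.35, 6.00, 6.21 and 5.71 in EPO-HI, and 3 of the 5 VEH-HI arrays lay above all of these. The difference was -0.45 (SE 0.17, 95% interval -0.81 to -0.09; exact two-sided permutation p = 0.0397, unadjusted; limma adjusted p = 1.00). The group means ran VEH-HI 6.51 ± 0.29, VEH-Sham 6.33 ± 0.29 and EPO-HI 6.06 ± 0.24 (SD, n = 5), and no neighbours passed. Igf2 was next, with a difference of -0.30 (SE 0.14, 95% interval -0.59 to -0.02; exact permutation p = 0.0476, unadjusted). Its EPO-HI values fell into a group near 9.2 (EPO-HI 11 and 13) and a group of 3 inside the VEH-HI range.

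Igf2r, by 1424112_at, differed by -0.20 (95% interval -0.48 to 0.07; exact permutation p = 0.0397, unadjusted), and its limma p was not below an unadjusted 0.05. The remaining members below an unadjusted 0.05 in limma were Igf1 by 1419519_at and Igfbp3 by 1423062_at. The Igf1 probe set read 6.65, 6.24, 6.55, 6.63 and 6.28 in VEH-HI and 6.89, 6.51, 6.51, 6.92 and 7.04 in EPO-HI, a difference of 0.31 (95% interval 0.01 to 0.60). The brightest Igf1 probe set differed in the same direction by 0.18 (95% interval -0.06 to 0.42), which did not reach an unadjusted 0.05. Igfbp3 differed by -0.45 (SE 0.22; exact permutation p = 0.198, unadjusted), with VEH-HI 6 and 8 the highest arrays. For Igfbp7 the difference was -0.17 (95% interval -0.51 to 0.17) and for Igfbp2 -0.13 (-0.39 to 0.13). For the brightest probe set of Igf1r it was 0.06 (-0.19 to 0.30), and over all 25 probe sets the interval bounds reached from -0.99 to 1.07.

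**Figure D4:**
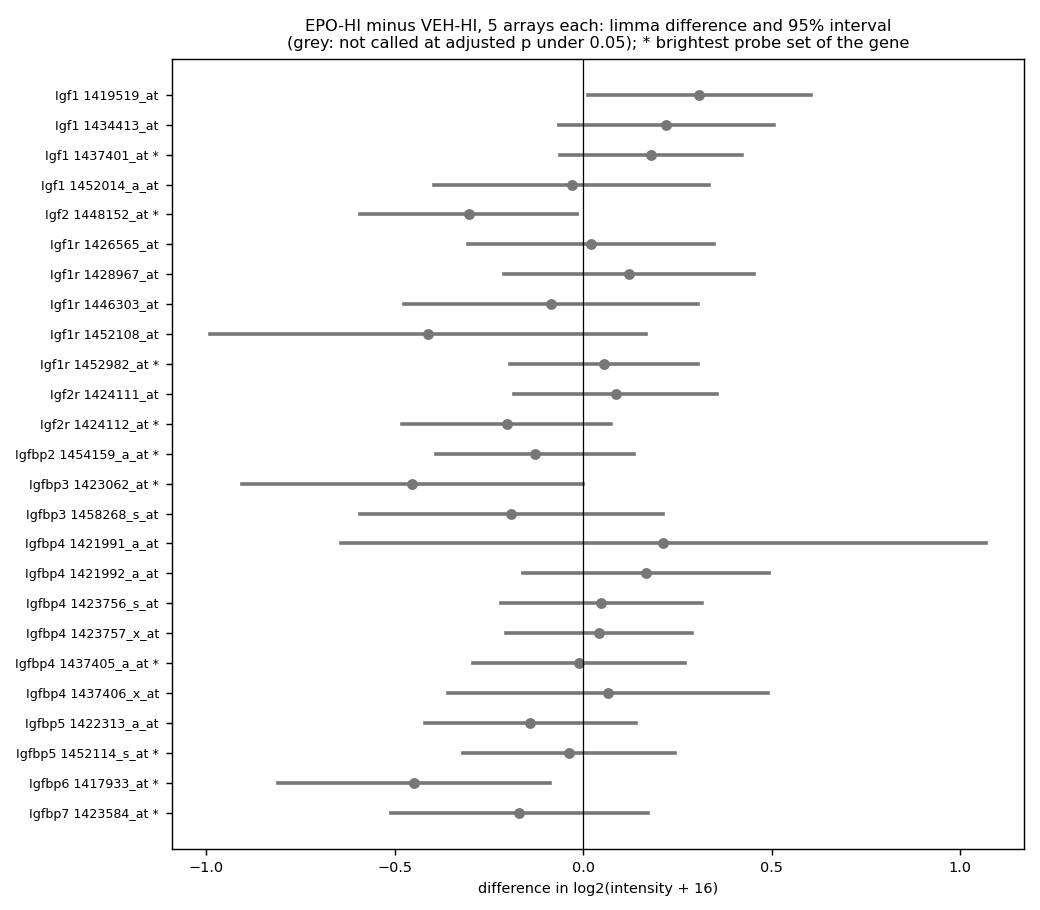
Difference between EPO-HI and VEH-HI on the log2(intensity + 16) scale for the 25 tested probe sets, with its 95% interval (n = 5 per group). No probe set passed the adjusted threshold; the intervals of Igfbp6 (-0.81 to -0.09) and Igf2 (-0.59 to -0.02) lie below 0 before adjustment.

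EPO-HI was also compared with VEH-Sham; this uses the same sham arrays as VEH-HI against VEH-Sham, so the values are given side by side and are not a separate observation. Of 25 probe sets 4 were higher and 1 lower, beside 7.42% and 10.9% of all tested (18.3% in either direction). By gene, 2 of 10 were higher and 0 lower (8.86% and 9.46% of all genes, 18.3% in either direction), namely Igfbp7 and Igfbp2. With equal array medians 8 were higher and 1 lower, and with quantile normalization 1 and 1.

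Igfbp7 was higher in EPO-HI than in VEH-Sham by 0.57 (SE 0.16, limma adjusted p = 0.0223; 0.58 against VEH-Sham 5 alone), beside 0.74 for VEH-HI. This call was lost without VEH-Sham 1, VEH-Sham 4 or EPO-HI 15 (limma adjusted p of 0.0523 to 0.0646). It was also lost with quantile normalization, and in 6 of 25 settings in all. Igfbp2 was higher by 0.38 (SE 0.13, limma adjusted p = 0.0401), beside 0.51 for VEH-HI, but by -0.01 against VEH-Sham 5 alone. Its call was lost without VEH-Sham 1, 2, 3 or 4 or EPO-HI 11, 12 or 15 (limma adjusted p of 0.0713 to 0.118). Quantile normalization, eBayes without trend and no filter on dim probe sets each removed it too, and 12 of 25 settings did in all. The Igfbp4 probe sets 1437406_x_at and 1423756_s_at were higher by 0.80 and 0.41 (limma adjusted p = 0.0128 and 0.0311; 0.48 and 0.18 against VEH-Sham 5 alone), the second losing its call without VEH-Sham 2 or 4 or EPO-HI 11, 12 or 13 (adjusted p of 0.0586 to 0.0929). All EPO-HI arrays lay above all sham arrays for 1423756_s_at, which was so for 3.16% of probe sets. Its call was also lost with quantile normalization and with eBayes without trend. The Igf1r probe set 1452108_at was lower by a difference of -1.29 (SE 0.28, limma adjusted p = 0.006), and by -0.19 against VEH-Sham 5 alone. Its EPO-HI mean of 4.97 was below the limit of 5.46 for testing, and it was tested because of the VEH-Sham mean of 6.26. Igf2 and Igfbp3 differed by 0.22 and 0.27 and did not pass (adjusted p = 0.265 and 0.387); against VEH-Sham 5 alone they differed by -0.31 and 0.41, so that the sign turned for Igf2.

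Few other genes of the pathway passed; the shares of all 13168 genes given above (23.4% called in VEH-HI against VEH-Sham, 18.3% in EPO-HI against VEH-Sham) are the measure for the counts that follow. Of 9 further ligands, binding proteins and proteases of the IGF system, 4 were bright enough to be tested and 0 passed in any of the 3 comparisons. They were Pappa2 and Htra1, proteases that cut binding proteins, and the stanniocalcins Stc1 and Stc2, secreted inhibitors of proteases of the PAPPA2 family. In VEH-HI against VEH-Sham Pappa2 differed by -0.41 and Stc2 by -0.40 (limma adjusted p = 0.0893 and 0.132), and against VEH-Sham 5 alone by -0.31 and 0.38. Of 8 tested receptors and adaptors of the insulin family, 1 was higher in VEH-HI and 0 lower. It was Irs1, which links IGF1R to PI3K, at 8.64 against 8.30 in sham (difference 0.33, SE 0.09, limma adjusted p = 0.0122; 0.22 against VEH-Sham 5 alone). The insulin receptor gene Insr and the adaptor gene Shc1 differed by -0.26 and 0.44 and did not pass (adjusted p = 0.179 and 0.0539; 0.01 and 0.19 against VEH-Sham 5 alone).

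Of 16 tested genes of the PI3K, AKT, FOXO and mTOR arm, 1 was higher and 1 lower in VEH-HI. The kinase gene Akt1 was higher by 0.43 (SE 0.14, limma adjusted p = 0.0304), with a difference of -0.15 against VEH-Sham 5 alone and with 0 of its 2 other tested probe sets in the same direction. Pik3r3, a regulatory subunit of PI3K, was lower by a difference of -0.32 (SE 0.11, limma adjusted p = 0.0393; -0.54 against VEH-Sham 5 alone). In EPO-HI against VEH-Sham, Akt1 was again higher (0.43, adjusted p = 0.0369; -0.16 against VEH-Sham 5 alone). Foxo3, a transcription factor that AKT holds inactive, was lower there (-0.63, limma adjusted p = 0.0153), although by 0.15 the other way against VEH-Sham 5 alone. The 1 other tested Foxo3 probe set did not go in the same direction. In VEH-HI against VEH-Sham, Foxo3 differed by -0.46 and came just short of the threshold (limma adjusted p = 0.0525). Against VEH-Sham 5 alone that difference was 0.33. Between EPO-HI and VEH-HI, Foxo3 differed by -0.17 and did not pass. Of the IGF2 mRNA-binding proteins and the imprinted neighbour H19, only Igf2bp3 was tested, and it differed by -0.46 in VEH-HI (adjusted p = 0.111) and by 0.15 the other way against VEH-Sham 5 alone. Between EPO-HI and VEH-HI 0 tested genes of these lists passed.

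Markers of cell types that could make these proteins were read in the same samples, where 11.9% of all genes were higher and 11.5% lower in VEH-HI than in VEH-Sham. In bulk RNA, more cells of a type and more RNA per cell cannot be told apart. Of 10 tested genes of microglia and macrophages, 7 were higher and 1 lower in VEH-HI against VEH-Sham, with a median difference of 0.53 (0.45 against VEH-Sham 5 alone). The complement genes C1qa and C1qc rose by 1.00 and 1.33 (0.97 and 1.17 against VEH-Sham 5 alone) and the adaptor gene Tyrobp by 1.13 (0.93). P2ry12, a marker of resting microglia, was lower by a difference of -0.72 (-0.55 against VEH-Sham 5 alone). The mean over this list ran from 7.88 to 8.08 in VEH-Sham, from 8.33 to 8.77 in VEH-HI and from 8.09 to 8.50 in EPO-HI, so that all hypoxic ischemia arrays lay above all sham arrays.

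For the meninges and fibroblasts, 3 of 10 were higher and 0 lower, namely the collagen gene Col3a1 (0.79), Aldh1a2 (0.92) and the transporter gene Slc6a13 (0.56). Against VEH-Sham 5 alone these were 0.53, 0.64 and -0.03, and the list's median of 0.23 became -0.01. Their mean was 7.08 to 7.29 on VEH-Sham 1 to 4, 7.41 on VEH-Sham 5, 7.38 to 7.74 in VEH-HI and 7.21 to 7.35 in EPO-HI. VEH-Sham 5 was above the other sham arrays in this list and also in the choroid plexus, endothelial, astrocyte and neuronal lists. Of 8 choroid plexus genes 2 were higher and 0 lower (Ttr by 0.29 and the water channel gene Aqp1 by 0.62; 0.03 and 0.44 against VEH-Sham 5 alone), with list means of 7.13 to 7.36 in VEH-Sham, 7.35 to 7.43 in VEH-HI and 7.21 to 7.44 in EPO-HI. Of 8 astrocyte genes 4 were higher and 0 lower, with a median difference of 0.39 (0.12 against VEH-Sham 5 alone). The 4 were Gfap (1.32), Aldh1l1 (0.83), Mlc1 (0.515) and Aqp4 (0.36). Against VEH-Sham 5 alone these were 1.17, 0.40, 0.14 and 0.27. The astrocyte list means were 9.32 to 9.68 in VEH-Sham, 9.61 to 10.18 in VEH-HI and 9.74 to 10.08 in EPO-HI. Of 8 neuronal genes 0 were called and 0 differed upward, with a median difference of -0.14 (-0.24 against VEH-Sham 5 alone). Of 4 tested oligodendrocyte genes 0 were higher and 1 lower, with a median difference of -0.22 (-0.42 against VEH-Sham 5 alone). The lower gene was Mobp (-0.85, and -0.79 against VEH-Sham 5 alone).

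For the vessel wall, 1 of 9 endothelial genes was higher and 1 lower. Pecam1 differed by 1.40 but by 0.01 against VEH-Sham 5 alone, and the VEGF receptor gene Flt1 by -0.52 (-0.33 against VEH-Sham 5 alone). The endothelial mean ran from 7.02 to 7.19 in VEH-Sham, from 6.80 to 7.63 in VEH-HI and from 6.94 to 7.29 in EPO-HI. VEH-HI 6 was the highest array in the endothelial, microglial, meningeal, pericyte and astrocyte lists and the lowest in the neuronal list. Of 6 genes of pericytes and smooth muscle 1 was higher and 0 lower (Tagln, 1.02, and 0.92 against VEH-Sham 5 alone). Tagln had a VEH-Sham mean of 4.89, below the limit of 5.46 for testing, as did Pecam1 at 5.1. Tagln was tested because of means of 5.91 in VEH-HI and 6.02 in EPO-HI. The list means were 7.01 to 7.23 in VEH-Sham, 7.16 to 7.77 in VEH-HI and 7.15 to 7.69 in EPO-HI. No gene of these lists was at 0 on any array. The part of these cell types in the members' differences was not tested.

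**Figure D5:**
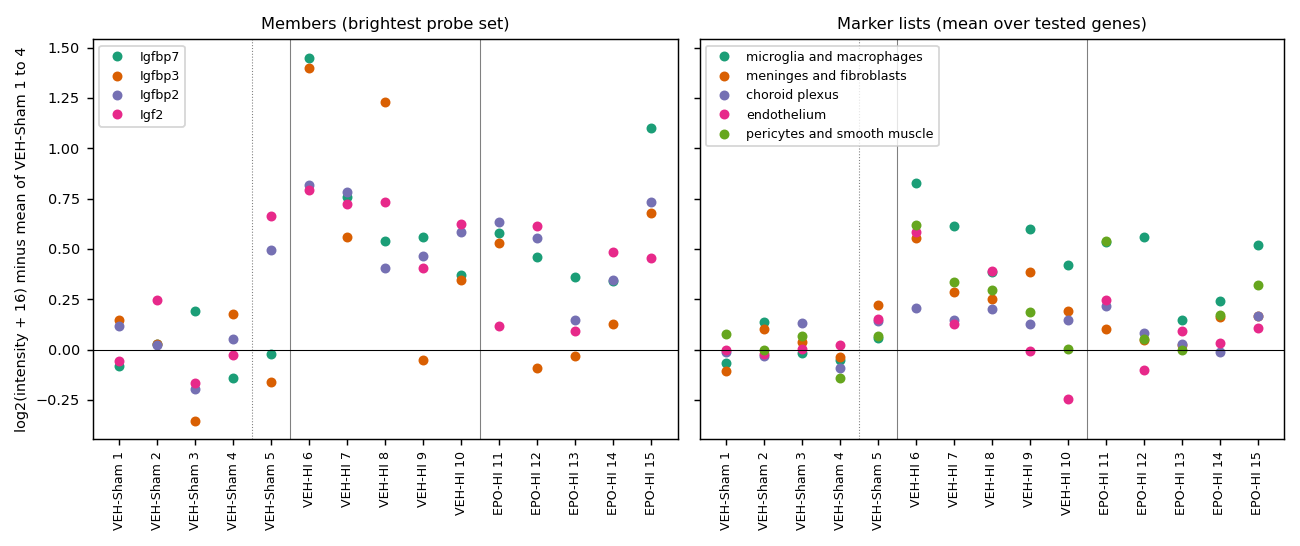
Left, 4 members by their brightest probe set; right, the mean over the tested genes of 5 marker lists; both as log2(intensity + 16) minus the mean of VEH-Sham 1 to 4, on each of the 15 arrays (the dotted line sets VEH-Sham 5 apart). Igfbp7 and the microglial list are above sham on all 10 arrays of hypoxic ischemia, and VEH-HI 6 is highest for Igfbp7 (10.26), Igfbp3 (8.78) and the microglial list (8.77).

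Within the 10 hypoxic ischemia arrays the members varied by 0.54 (Igf2r) to 1.48 (Igfbp3) between the lowest and the highest array, and the genes that followed them most closely differed from member to member. Each member was compared with 13167 other genes by Pearson's r over these 10 arrays, which share the injury, the array set and, in groups of 5, the injection; the values are descriptions and carry no test. Igfbp7 ran closest to Id1, an inhibitor of differentiation that is prominent in vessels (r = 0.97, Spearman's rho = 0.939), Gng11 (r = 0.958) and Il13ra1 (r = 0.943). Igfbp3 ran closest to the stress-response genes Gadd45b (r = 0.961) and Ier3 (r = 0.948) and to Plaur, the urokinase receptor gene (r = 0.935). Igfbp2 ran closest to the complement gene C1qa (r = 0.964) and to Slc37a2 (r = 0.936), apart from a predicted gene. Igf2 ran closest to Sphk1 (r = 0.937), Slc2a8 (r = 0.907) and Tedc2 (r = 0.894).

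For the members with no call by the brightest probe set, the closest genes were Mphosph8 for Igf1 (r = 0.967), Ehd3 for Igf1r (r = 0.919) and Sec14l3 for Igf2r (r = 0.921). They were Snx3 for Igfbp4 (r = 0.972), Slc25a30 for Igfbp5 (r = 0.94) and Rcor2 for Igfbp6 (r = 0.943). Between members the closest pairs were Igf2 with Igfbp6 (r = 0.767), Igfbp2 with Igfbp7 (r = 0.731) and Igfbp3 with Igfbp7 (r = 0.708). All of these rest on the same 10 arrays, and with so many genes compared, values of this size arise for members that did and did not pass a test alike.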

How the data were processed

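Each deposited value is a linear intensity, 1 per probe set and array. As the numbers themselves show, the authors had brought every array to a trimmed mean of 150.0 (2% trimmed at each end); the sources used here do not name the summary software. All 15 value columns matched a sample. The 64 control probe sets of 45101 were left out. Symbols came from the platform's annotation, checked by gene number against GRCm38.p6 (34741 matched, 0 changed).

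From these intensities log2(intensity + 16) was computed, and the brightest 60% of probe sets (27022) were fitted in limma 3.58.1 (R 4.3.3; lmFit, eBayes with trend) with 3 group means over 15 arrays. Adjusted p-values are Benjamini-Hochberg over all tested, two-sided, with a threshold of 0.05. Their precision is limited by 5 arrays a group. The script was tested on simulated data. A gene was represented by its brightest probe set with 1 symbol. All member probe sets were to be named, up to 4 genes a pathway list by smallest p, and 3 genes most like each member. Members and lists were chosen with earlier results of these data known.

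Alternatives were other pseudocounts, filters, scalings and variance models, the array set, and leaving out each array. The array sets (VEH-Sham 1 to 4 and the other 11) are not in the labels. Figures were drawn with matplotlib 3.10.9.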

Additional observations from a re-analysis of the deposited data

Results flagged for a closer look

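In 4 of 84 member probe set and group combinations, 1 array stood apart from the other 4 of its group; chance gives about 1 in 20. The brightest Igf1 probe set, 1437401_at, read 8.55 on VEH-Sham 5, above 8.28 to 8.34 on the other sham arrays. The Igfbp4 probe set 1421991_a_at read 4.65 on VEH-Sham 1, below 5.72 to 6.13 on the others. The brightest Igfbp5 probe set read 8.38 on VEH-HI 9, below 9.09 to 9.32 on the others. The untested Igfbp7 probe set 1423585_at read 5.68 on VEH-Sham 3, above 5.11 to 5.26 on the others. None of the tested probe sets among these was called in any of the 3 comparisons, and the Igfbp7 probe set did not enter them.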

How the results depend on the processing

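For VEH-HI minus VEH-Sham, 6174 probe sets were called; 3 were with the array set as a covariate and 7 within the 11 arrays where VEH-Sham 5 is the only sham array and is assumed to vary like the other groups. The member calls went from 9 to 0 in both. Leaving out 1 array gave 3824 (without VEH-Sham 4) to 9609 calls (without VEH-Sham 5), and 4 (without VEH-Sham 3) to 9 member calls. For EPO-HI minus VEH-Sham, 4939 became 4 with the covariate, 5 with VEH-Sham 5 alone, 3008 with the brightest 40% and 8603 with equal medians, and 2509 (without VEH-Sham 4) to 9047 (without VEH-Sham 5) on leaving out 1 array. Its member calls went from 5 to 0, 0, 9 with equal medians and 2 with quantile normalization, 3 with eBayes without trend, and 2 to 7 on leaving out 1 array. For EPO-HI minus VEH-HI, limma called 0 (1066 at an unadjusted p under 0.05), 0 to 4 on leaving out 1 array (4 without VEH-HI 8), and 0 to 0 members. Of all VEH-HI calls 43.1% were higher, against 85.6% with equal medians and 53.2% with quantile normalization; for EPO-HI minus VEH-Sham the shares were 40.6%, 88.7% and 53.2%. The direction reversed with the covariate and with VEH-Sham 5 alone for Igf2 (-0.0103 in both), for Igf1r 1452108_at (0.22 in both) and, in EPO-HI minus VEH-Sham, for Igfbp2 (-0.0116 in both). For Igf1r it reversed between the brightest probe set and 1428967_at (-0.47) and 1452108_at (-0.87, and -1.29 in EPO-HI minus VEH-Sham). With the covariate, VEH-Sham 1 to 4 are set apart from the other 11 arrays, so the sham level again rests on VEH-Sham 5. The covariate fit and the fit with VEH-Sham 5 alone therefore give the same difference and are not separate checks. The cause of these reversals was not tested. No paired analysis was possible because replicate numbers run through the series and no number occurs in more than 1 group. Signals of dim probe sets limit what can be read from the 3 untested members' probe sets.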
